A study of Mus musculus with 4 samples.

Results

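Genes that set how blood clotting is started and restrained at the cell surface were followed in MC38 cells, a mouse colon carcinoma line. The set comprised the 9 genes Procr, F3, Thbd, Tfpi, Tfpi2, F2r, F2rl1, Anxa2 and Anxa5 among the 26322 genes listed. All 9 were found by symbol and 7 passed the filter on low values, while Tfpi2 and F2rl1 were listed with 0 reads in every library. These genes were selected on the difference between sgCbfb and sgNT cells in these same libraries, with Procr in first place. Their differences are therefore given as descriptions, with no p-value, and the calls of the fit across all genes do not count as evidence about them.

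The cells had been electroporated with Cas9 complexed to either a guide against Cbfb (sgCbfb, labelled CbfbKO) or a non-targeting guide (sgNT, labelled WT). RNA was taken no earlier than 1 week afterwards. Cbfb encodes CBFβ, the partner that lets RUNX transcription factors bind DNA stably. Both groups carry Cas9 and a guide only transiently and are edited pools, not described as clones, and the design text says that loss of the protein was checked by western blot. There were 2 libraries per group, made from 2 of 3 collected replicates each, the third having been set aside for poor RNA. The labels do not say whether replicates were separate cultures, so the spread between these libraries may be technical. The p-values rest on this spread as pooled across genes of similar level, and not on that of 1 gene alone.

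Clotting at a cell surface starts when tissue factor, the product of F3, binds factor VII and leads to thrombin. Tissue factor pathway inhibitor, from Tfpi, blocks this start, whereas thrombomodulin (Thbd) and the endothelial protein C receptor (Procr) turn thrombin towards activating protein C, an anticoagulant. Thrombin also signals to cells by cutting the protease-activated receptor PAR1 (F2r), and activated protein C held by the receptor can cut the same PAR1 with a different outcome. Tumour cells are known for carrying tissue factor and PAR1, and annexins bind the phosphatidylserine-rich membrane on which clotting complexes assemble.

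The libraries held between 3189035 and 3907936 reads counted on genes. Values are deposited log2 CPM, the reads of a gene scaled to its library's total (CPM) on a log2 scale with a small prior count added, so that a gene with 0 reads stands at -0.79. These 3′ libraries read the end of each transcript, so CPM is not divided by transcript length. How well the 3′ end of each gene was captured and counted was not tested, and levels or read ratios of different genes are given with that limit. Some widely expressed genes, such as Gna12 and Anxa11 (chosen after their values were seen), had at most 1 read per library. Cbfb, the edited gene on chromosome 8 (105170674 to 105217989, GRCm38), averaged 6.44 ± 0.017 over sgNT libraries (SD, n = 2) and 5.17 ± 0.20 over sgCbfb libraries (SD, n = 2) on this log2 CPM scale, so 41.5% of the sgNT level of its mRNA remained. The line is labelled colorectal, but the 8 markers of colon epithelium reached at most 4 reads in any library, with Krt18 and Vil1 at 0. Markers of endothelium, the tissue in which Procr and Thbd are best known, summed to between 0.314 and 0.60 CPM over all libraries, with Kdr, Emcn and Cldn5 at 0. Of 4 platelet markers 1 had no reads and the sum lay between 1.57 and 3.07 CPM. Of 5 leukocyte markers 4 had no reads. Of 6 fibroblast markers only Lum had no reads, and their sum, with Pdgfra as the highest gene, lay between 66.6 and 72.1 CPM in sgNT and between 80.3 and 83.7 CPM in sgCbfb cells. This sum was higher in both sgCbfb libraries, and its part in the results was not tested. In bulk RNA, fewer cells of a type and less RNA per cell cannot be told apart.

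**Figure D1:**
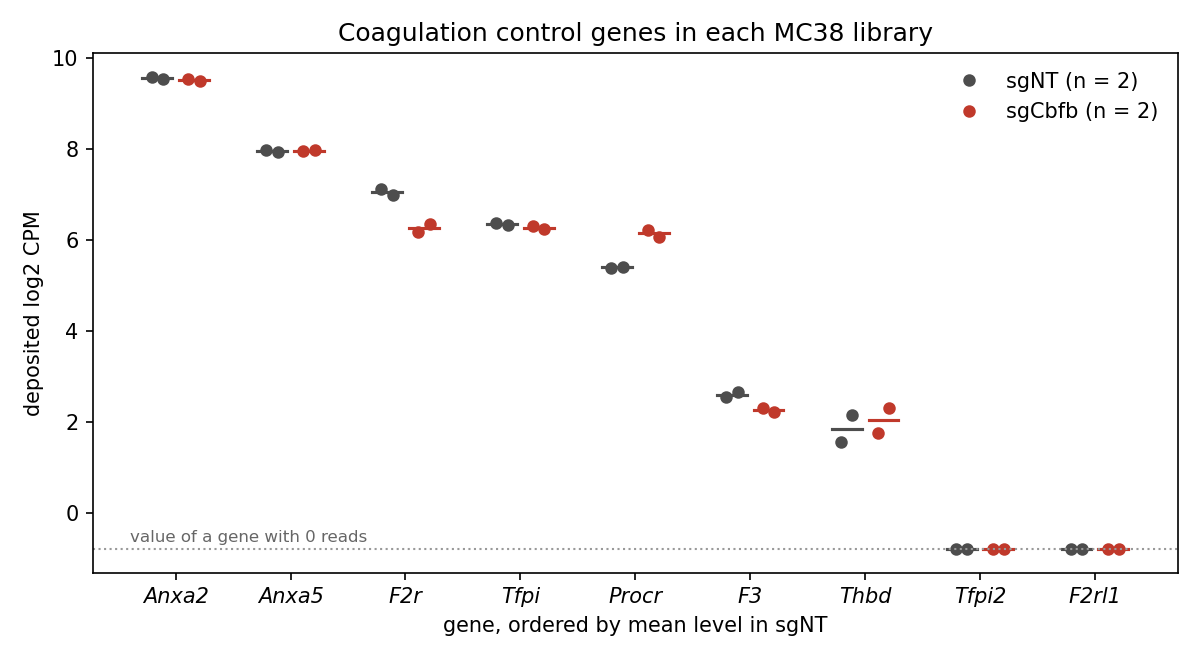
Deposited log2 CPM (y axis) of the 9 genes (x axis, ordered by mean sgNT level) in each library, with points for libraries, short lines for group means and a dotted line at the value of a gene with 0 reads. Procr is higher and F2r lower in both sgCbfb libraries, Anxa2, Anxa5 and Tfpi lie close in both groups, the Thbd libraries spread from 1.55 to 2.31 and interleave, and Tfpi2 and F2rl1 lie on the dotted line.

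The receptor for protein C and the receptor for thrombin differed in opposite directions. Procr mRNA was 1.68 times as high in sgCbfb as in sgNT cells, and F2r mRNA was at 57.9% of its sgNT level. The tissue factor inhibitor Tfpi and the annexins Anxa2 and Anxa5 were within 0.083 of their sgNT level on the log2 scale.

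Procr (ENSMUSG00000027611.12) lies on the plus strand of chromosome 2 (155751117 to 155755471, GRCm38) and encodes the receptor that presents protein C to thrombomodulin-bound thrombin. Procr was read 141 and 139 times in the sgNT libraries, and 289 and 213 times in the sgCbfb libraries. Scaled to library totals, these were 41.5 and 41.7 CPM in sgNT against 74.0 and 66.8 CPM in sgCbfb cells. Both sgCbfb libraries were above both sgNT libraries, and the 95% counting intervals of the groups did not meet, ending at 49.2 CPM in sgNT and starting at 58.1 CPM in sgCbfb. Procr was picked for this difference, so the separation is a description and no support for it. On the log2 CPM scale Procr averaged 5.40 ± 0.0039 over sgNT libraries (SD, n = 2) and 6.15 ± 0.10 over sgCbfb libraries (SD, n = 2), a difference of 0.75 with a standard error of 0.12 from limma. The sgNT libraries differed by 0.0055 and the sgCbfb libraries by 0.15, both less than the difference between the groups. Across the fits that each drop a library it ranged from 0.68 to 0.82.

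F2r (ENSMUSG00000048376.6), on the minus strand of chromosome 13 (95601803 to 95618487), encodes PAR1, the main thrombin receptor of many cell types. F2r was read 468 and 425 times in the sgNT libraries, and 280 and 260 times in the sgCbfb libraries. In CPM the sgNT libraries stood at 138 and 127 and the sgCbfb libraries at 71.6 and 81.5. The sgCbfb libraries lay below the sgNT libraries without overlap, again a description of a gene picked on this contrast. F2r averaged 7.06 ± 0.079 over sgNT libraries (SD, n = 2) and 6.27 ± 0.13 over sgCbfb libraries (SD, n = 2) in log2 CPM, a difference of -0.79 with a standard error of 0.096. Replicates of a group differed by at most 0.18, and the difference ranged from -0.88 to -0.70 with each library left out.

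Because both genes were read in the same libraries, their ratio does not depend on how a library was scaled. Procr made up 23.2% of the Procr and F2r reads together in sgNT replicate 1 (exact Clopper-Pearson 95% interval 19.9% to 26.7%) and 24.6% in sgNT replicate 2 (21.1% to 28.4%). It made up 50.8% in sgCbfb replicate 1 (46.6% to 55.0%) and 45.0% in sgCbfb replicate 2 (40.5% to 49.6%). There were thus about 3.32 and 3.06 F2r reads for each Procr read without Cbfb editing, and 0.969 and 1.22 with it. Such shares carry counting error only, and a changed ratio does not show which gene moved. Procr and F2r have the largest differences of the set, in opposite directions, and were paired with these known. A shifted share was thus fixed by the choice of genes and is no separate support.

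**Figure D2:**
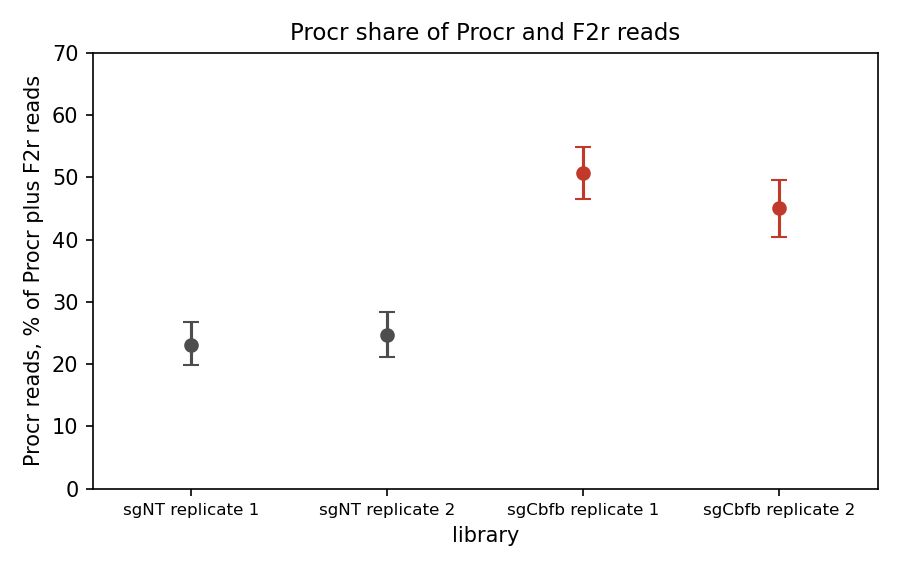
Procr reads as a percentage of Procr plus F2r reads (y axis) in each library (x axis), with exact 95% intervals that cover counting error only. The sgNT libraries stand at 23.2% and 24.6% and the sgCbfb libraries at 50.8% and 45.0%, with no overlap of the intervals between groups. The pair was chosen with the opposite differences of its genes known, so the shift is a description.

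Promoter sequences from RefSeq (GRCm38.p6, 250 bases before to 50 after a start) were at hand for 7 of the 9 genes, in 10 versions, and not for Thbd and F2rl1. They were searched on both strands for the RUNX core TGTGGT (on the other strand this reads ACCACA), since CBFβ acts through RUNX proteins, and for the AP-1 motif TGANTCA, which reads the same on both strands. In these promoters no match of one motif overlapped a match of the other. The promoters of the genes with the largest differences and of F3, the starter of clotting, are printed 5′ to 3′ to show which letters they hold, with RUNX and AP-1 matches in capitals. They lie at chr2:155750967-155751266 on the plus strand (Procr), chr13:95618417-95618716 on the minus strand (F2r) and chr3:121723287-121723586 on the plus strand (F3).
Procr: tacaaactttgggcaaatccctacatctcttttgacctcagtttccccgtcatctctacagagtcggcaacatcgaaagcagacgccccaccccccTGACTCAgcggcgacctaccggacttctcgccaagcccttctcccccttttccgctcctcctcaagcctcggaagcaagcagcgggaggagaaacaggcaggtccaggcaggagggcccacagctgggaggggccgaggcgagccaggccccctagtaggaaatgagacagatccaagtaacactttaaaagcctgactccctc
F2r: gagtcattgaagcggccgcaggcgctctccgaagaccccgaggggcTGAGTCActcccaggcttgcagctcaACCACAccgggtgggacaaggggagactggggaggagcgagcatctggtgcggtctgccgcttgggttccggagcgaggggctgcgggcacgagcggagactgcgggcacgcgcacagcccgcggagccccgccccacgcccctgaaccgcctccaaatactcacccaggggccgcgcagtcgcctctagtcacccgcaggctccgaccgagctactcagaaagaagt
F3: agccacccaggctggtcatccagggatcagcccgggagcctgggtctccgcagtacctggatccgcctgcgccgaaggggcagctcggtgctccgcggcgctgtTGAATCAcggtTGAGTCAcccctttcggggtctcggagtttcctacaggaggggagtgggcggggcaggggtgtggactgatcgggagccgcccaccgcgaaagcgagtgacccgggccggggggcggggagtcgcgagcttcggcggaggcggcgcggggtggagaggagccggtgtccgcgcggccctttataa

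The F2r promoter held 1 RUNX match and 1 AP-1 match, and the Procr promoter held 1 AP-1 match and no RUNX match. The F3 promoter held 2 AP-1 matches and no RUNX match. Over the set, 2 of 7 genes (F2r and Tfpi2) had a promoter with the RUNX core and 5 of 7 (Procr, F3, Tfpi2, Anxa2 and F2r) a promoter with the AP-1 motif. Counted by promoter, 2 of the 10 versions held the RUNX core and 5 of the 10 the AP-1 motif. Among all 32851 promoters of this length, 16.8% held the RUNX core and 7.81% the AP-1 motif. Tfpi2 has 3 promoter versions and 1 of them held both. A match is a description of the letters and was not compared with binding.

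At the start of clotting, F3 (chromosome 3, 121723537 to 121735048, plus strand) was expressed at a low level. F3 had 18 and 19 reads without Cbfb editing (sgNT) and 17 and 13 with it (sgCbfb). On the log2 CPM scale these were 2.56 and 2.65 in sgNT and 2.30 and 2.22 in sgCbfb cells. Both sgCbfb libraries were lower, but the difference of -0.34 was about as large as its standard error of 0.34. The counting intervals of the libraries all overlapped, spanning 3.14 to 8.90 CPM in sgNT and 2.17 to 6.97 CPM in sgCbfb cells. The F3 replicates differed by 0.094 in sgNT and 0.082 in sgCbfb cells, and the difference ranged from -0.39 to -0.30 with each library left out. A difference in F3 was not established by these counts.

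Tfpi (chromosome 2, 84432855 to 84476775, minus strand) had far more reads than the factor it inhibits, 282 and 267 in sgNT and 310 and 238 in sgCbfb cells. It averaged 6.36 ± 0.037 over sgNT libraries (SD, n = 2) and 6.28 ± 0.062 over sgCbfb libraries (SD, n = 2) in log2 CPM, a difference of -0.083 with a standard error of 0.10. The groups did not overlap by a narrow margin (6.33 for the lower sgNT and 6.32 for the higher sgCbfb library). Within each library there were 15.7 and 14.1 Tfpi reads per F3 read in sgNT and 18.2 and 18.3 in sgCbfb cells. As a share, F3 took between 5.18% and 6.64% of the F3 and Tfpi reads, with overlapping exact intervals in all 4 libraries. The second inhibitor gene, Tfpi2 (chromosome 6, 3962595 to 3988919), had 0 reads in every library, which allows up to between 0.768 and 0.941 CPM per library (3 reads, a one-sided limit, lower than the upper end of a two-sided interval such as those given for the genes with reads).

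Thbd (chromosome 2, 148404466 to 148408188, minus strand), the thrombin-binding partner of the Procr system, was the lowest gene with reads, at 8 and 13 in sgNT and 11 and 14 in sgCbfb cells. The libraries interleaved on the log2 CPM scale, at 1.55 and 2.16 in sgNT and 1.76 and 2.31 in sgCbfb cells. The difference was 0.18 with a standard error of 0.40, and it was -0.12 without sgNT replicate 1 and -0.095 without sgCbfb replicate 2. Replicates differed by as much as 0.61 in the same group, more than the groups did. Thbd reads were between 3.67% and 8.55% of the Thbd and Procr reads together.

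The second receptor of the set, F2rl1, encodes PAR2, which tissue factor with factor VII and trypsin-like proteases can cut. It lies on chromosome 13 (95511732 to 95525227), 76575 bases from F2r, in a cluster that goes on with F2rl2 78365 bases beyond F2r. F2rl1 had 0 reads in all libraries, as had F2rl2 and F2rl3, the other members of the receptor family (both chosen after their values were seen). F2r was thus the PAR gene with reads in these cells. A count of 0 allows up to between 0.768 and 0.941 CPM of F2rl1 per library by the same one-sided limit of 3 reads as for Tfpi2.

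The annexins of the set were its most abundant genes. Anxa2 (chromosome 9, 69453620 to 69491795), which with S100a10 forms a plasminogen-binding surface complex, had between 2312 and 2925 reads per library. It stood at 9.59 and 9.54 log2 CPM in sgNT and 9.55 and 9.50 in sgCbfb cells. These values interleave, and the difference was -0.038 with a 95% interval from limma of -0.15 to 0.077. Anxa5 (chromosome 3, 36448923 to 36475894), which covers exposed phosphatidylserine, had 804 to 963 reads per library. Its levels of 7.97 and 7.93 in sgNT and 7.95 and 7.98 log2 CPM in sgCbfb cells overlapped, with a difference of 0.017 and a 95% interval of -0.13 to 0.16. Anxa2 overlaps the antisense gene Gm16144 and Mir3109, both with 0 reads, and the other genes with reads overlap no annotated gene apart from Mir7009 in Anxa5.

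By mean level in sgNT cells the order was Anxa2 (757 CPM), Anxa5 (246 CPM), F2r (133 CPM), Tfpi (81.5 CPM), Procr (41.6 CPM), F3 (5.50 CPM) and Thbd (3.13 CPM), with Tfpi2 and F2rl1 at 0. The library values of neighbours with reads did not overlap in sgNT cells. The counting intervals of F3 (3.14 to 8.90 CPM over the sgNT libraries) and Thbd (1.02 to 6.67 CPM) did overlap there. In sgCbfb cells Tfpi (74.6 to 79.3 CPM), F2r (71.6 to 81.5 CPM) and Procr (66.8 to 74.0 CPM) lay close. There F2r overlapped both others, while Tfpi stayed just above Procr. F3 (4.21 CPM) and Thbd (3.60 CPM) overlapped there too.

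**Figure D3:**
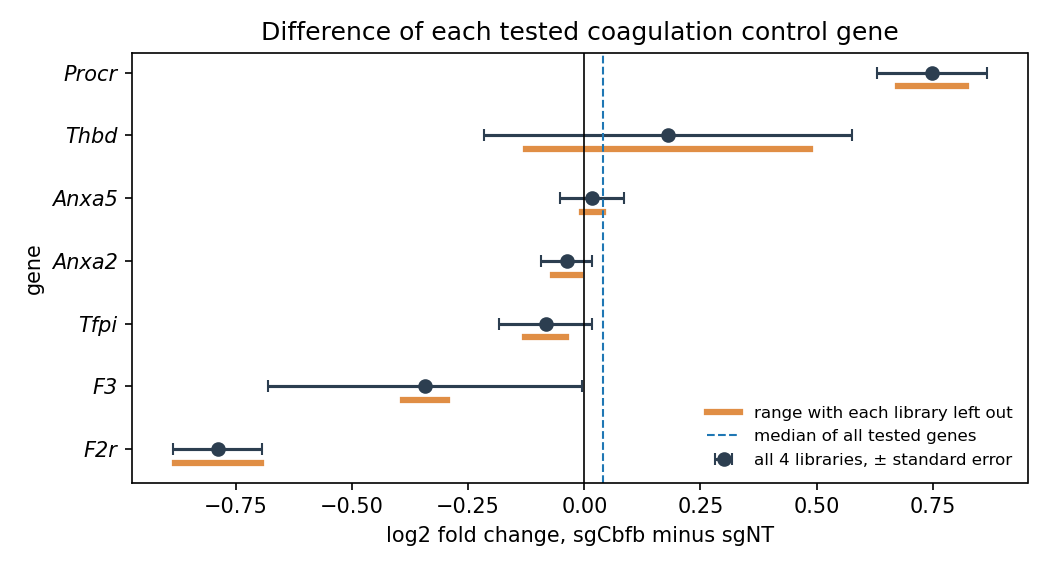
Log2 fold change, sgCbfb minus sgNT (x axis), of the 7 tested genes, with dots and bars for the limma estimate ± standard error over 4 libraries, orange bars for the range with each library left out, and a dashed line at the median of all tested genes (0.039). Procr (0.75) and F2r (-0.79) lie farthest from the line, and Thbd is the gene whose range crosses 0 most widely.

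In the fit across all 12207 tested genes (limma with Benjamini-Hochberg adjustment, adjusted p under 0.05), 1 of the 7 genes past the filter, Procr, was called higher and 1, F2r, was called lower, which describes how they were picked. Over all tested genes 1.57% were called higher and 1.25% lower, and since the set was picked from this contrast, nothing is read from its counts. The groups did not overlap for 4 of the 7 genes (Procr, F2r, F3 and Tfpi), against 44.1% of all tested genes. The median log2 fold change was -0.038 over the 7 genes and 0.039 over all tested genes. With 2 libraries per group an exact permutation test of 1 gene cannot go below p = 0.333. Without the mean-variance trend, or without the filter on low values, neither Procr nor F2r was called. These settings leave the difference itself as it is. They change its error and, without the filter, the number of genes adjusted over (26322). Why the calls were lost was not tested.

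The rest of the clotting and fibrinolysis system was described from 8 lists that together hold 77 genes, none of them in the set above. Of these 42 were tested, 2 were called higher (Serpine2 and Ano6) and 1 was called lower (Anxa1), and 8 had an unadjusted p under 0.05 (19.0%, against 14.9% of all tested genes). Their median log2 fold change was 0.096, against 0.039 over all tested genes. No reads were found for 26 of the 77 genes, against 11447 of all 26322 genes listed. Among the 26 were 12 of the 16 coagulation factor genes. Without the mean-variance trend, and without the low-value filter, none of the 3 was called by limma (10 and 8 pathway genes at an unadjusted p under 0.05).

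In the fibrinolysis list all 8 tested genes had a positive log2 fold change, as had 57.0% of all tested genes. The median of the list was 0.34, against 0.039 over all tested genes. Serpinb2 (chosen after its values were seen) was among the 8 on 0 and 2 reads in sgNT and 2 and 1 in sgCbfb cells. Of the 8 genes 1 was called higher and 2 had an unadjusted p under 0.05 by limma, so most were not past the threshold. Serpine2, for protease nexin-1, an inhibitor of thrombin and plasminogen activators at the cell surface, had 31 and 31 reads in sgNT and 68 and 57 in sgCbfb cells. Its log2 level rose by 0.90 ± 0.23 (standard error, limma adjusted p = 0.031), without overlap between groups. The call for Serpine2 was lost without either sgCbfb library (adjusted p = 0.252 without replicate 1 and 0.244 without replicate 2, from limma) and with quantile normalization (0.149), and over all alternatives its adjusted p ranged from 0.00923 to 0.252.

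Among the other fibrinolysis genes, S100a10, the partner of Anxa2, differed by 0.054 ± 0.059 on the log2 scale (standard error, limma adjusted p = 0.742) and Plgrkt, a plasminogen receptor, by 0.036 ± 0.14 (limma adjusted p = 0.944). Plat, for tissue plasminogen activator, Plaur, for the urokinase receptor, and Plau, for urokinase, fall outside the rule for named genes and were chosen after their values were seen. Plat stood at 8 and 10 reads in sgNT and at 24 and 22 under Cbfb editing (limma adjusted p = 0.094). Plaur stood at 66 and 108 reads in sgNT and at 108 and 123 under Cbfb editing (limma adjusted p = 0.406). The groups did not overlap for Plat and overlapped for Plaur, and neither passed the threshold. Plau had 0 reads in every library.

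**Figure D4:**
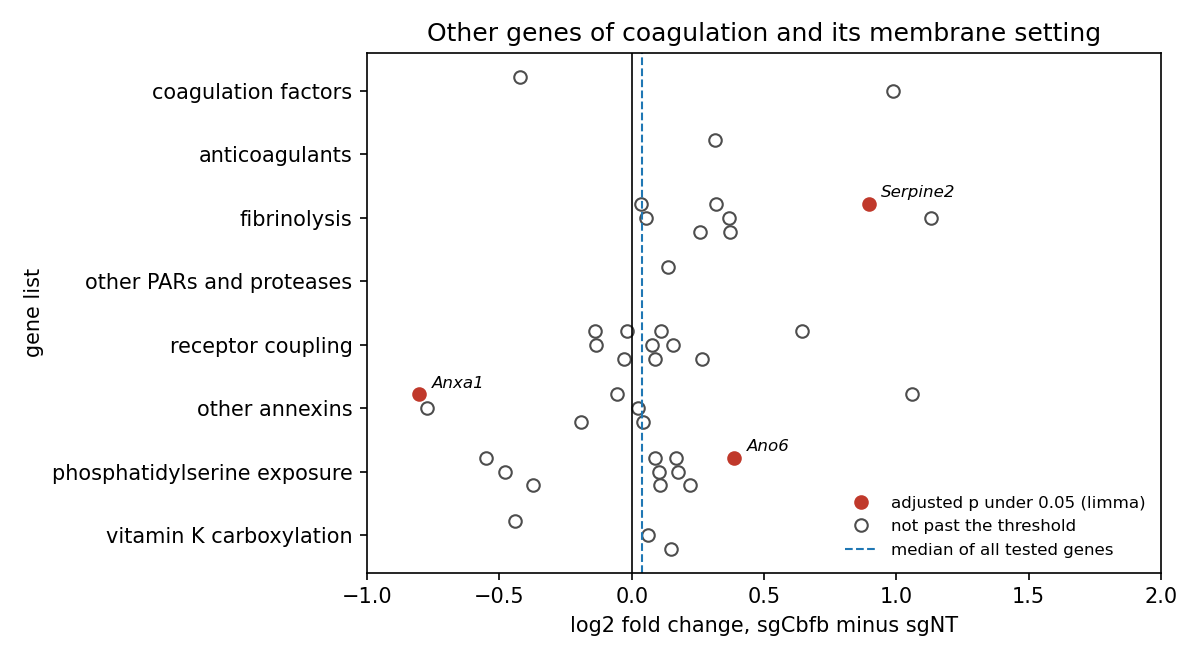
Log2 fold change, sgCbfb minus sgNT (x axis), of the 42 tested genes in 8 lists (y axis), with filled red points for adjusted p under 0.05 by limma, open points for the others and a dashed line at the median of all tested genes (0.039). Serpine2 (0.90) and Ano6 (0.39) are the red points on the right and Anxa1 (-0.80) is the red point on the left.

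Of the annexins outside the set, 7 of 10 were tested and 3 had an unadjusted p under 0.05 by limma (42.9%, against 14.9% of all tested genes). Of the 7 genes 1 was called, Anxa1, which encodes an anti-inflammatory phospholipid-binding protein. Anxa1 had 825 and 883 reads in sgNT and 541 and 485 in sgCbfb cells. The sgCbfb libraries lay below the sgNT libraries, at 57.3% of their level (log2 fold change -0.80 ± 0.078 standard error, limma adjusted p = 2.04e-07). The call was lost without the low-value filter (adjusted p by limma 0.291) and without the trend (0.164). Anxa3 (0.024, adjusted p = 0.947 from limma) and Anxa4 (-0.19, adjusted p = 0.50 from limma) were not past the threshold, and the median of the 7 was -0.055. Anxa8 (log2 fold change 1.06 ± 0.41 standard error, limma adjusted p = 0.198) and Anxa9 (-0.78 ± 0.32, limma adjusted p = 0.233) were chosen after their values were seen. Their groups did not overlap, in opposite directions, and neither passed the threshold.

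In the list of phosphatidylserine exposure, which supplies the membrane on which clotting complexes form, 1 of 10 tested genes was called. Over all tested genes 1.57% were called higher and 1.25% lower. By limma 2 of the 10 had an unadjusted p under 0.05 (20%, against 14.9% of all tested genes). The uncalled gene of these 2, Plscr1 (chosen after its values were seen), was lower, by -0.55 ± 0.21 (standard error, limma adjusted p = 0.199). Ano6, for the scramblase that brings phosphatidylserine to the outer leaflet, had 330 and 347 reads in sgNT and 494 and 438 in sgCbfb cells. Its log2 level rose by 0.39 ± 0.089 (standard error, limma adjusted p = 0.0131), to 1.31 times that of sgNT. Its call was lost without sgNT replicate 1 (adjusted p = 0.065 from limma), without sgCbfb replicate 1 (0.0654) and without sgCbfb replicate 2 (0.22), and with quantile normalization (0.177), within a range over all alternatives from 0.00206 to 0.506. Pdia3 and P4hb, protein disulfide isomerases, had a log2 fold change of 0.10 each with adjusted p-values of 0.452 and 0.498 from limma.

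The other 5 lists held 0 calls by limma, and 1 of their tested genes, in receptor coupling, had an unadjusted p under 0.05. The protein S gene Pros1, the cofactor of activated protein C, was the tested anticoagulant, with 89 and 106 reads in sgNT against 134 and 121 under Cbfb editing (log2 fold change 0.32 ± 0.15 standard error, limma adjusted p = 0.335). Of the coagulation factors F8 and F13a1 were tested, on at most 9 and 2 reads per library (adjusted p = 0.723 and 0.44 from limma). Among PAR-coupling genes, Gnai2 and the receptor kinase gene Grk2 had log2 fold changes of 0.11 and 0.088 (adjusted p = 0.407 and 0.74 from limma). The protease gene Furin had a log2 fold change of 0.14 (adjusted p = 0.563 from limma). Of the vitamin K genes, Vkorc1 and Vkorc1l1 stood at 0.061 and -0.44 on the same scale (adjusted p = 0.888 and 0.439 from limma).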

How the data were processed

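MC38 3′ mRNA libraries were grouped by their labels (2 WT, here sgNT, and 2 CbfbKO, here sgCbfb). According to the methods and the submitters' processing notes, reads were trimmed with cutadapt 1.9, aligned to GRCm38/mm10 with HISAT2 2.1.0 and counted per gene with featureCounts. The notes give featureCounts 2.0.1 and the methods another release. The tool behind the values, the annotation release, the use of strand and the treatment of multi-mapping reads are not given in the sources used here. The authors deposited log2 CPM values, scaled to each library's total. They imply a prior count of 2, from which whole reads were recovered (at least 99.992% of values within 0.1 of a whole number in every library) and used for depth, read shares and alternatives. Depth was between 3189035 and 3907936 reads per library. Intervals cover counting error only.

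Groups were compared on the deposited values by limma (version 3.58.1, R 4.3.3), modelling the variance as a trend of the mean. Genes reaching log2 CPM 0 in 2 or more libraries entered, 12207 in all, and two-sided p-values were adjusted by Benjamini-Hochberg and called under 0.05. The methods name voom with limma, which takes counts, so voom was an alternative. The fit was tested on simulated data. The alternatives were 2 other filters, 3 other scalings, no trend, 2 voom fits, 2 other prior counts, the replicate number as a block, and each library left out. The members, the gene lists and the tests were chosen with earlier results of these data known. One gene of the pathway lists is not reported here and was left out of their counts. Every member is named, and of each list the genes past the threshold and up to 2 others with the highest mean level. Genes named beyond this rule are marked in the text as chosen after their values were seen. Positions are from GENCODE M21 (GRCm38) and promoter sequences from RefSeq (GRCm38.p6). Figures were drawn with matplotlib 3.10.9.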

Additional observations from a re-analysis of the deposited data

How the results depend on the processing

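Of the 15 alternatives, the filters, the trend and the block leave a log2 fold change as it is by construction. In the other 11, Procr was positive and F2r negative, from 0.68 to 0.82 and from -0.88 to -0.70. F3, Tfpi and Anxa2 were negative in these 11, while Thbd was positive in 9 and Anxa5 in 6 of them. With quantile normalization the log2 fold change was -0.41 for F3 and -0.016 for Anxa5.

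The counts of calls moved with the filter, the scaling and the variance model. Against 192 higher and 153 lower genes, no low-value filter gave 2 and 53, quantile normalization gave 39 and 44, and a minimum of 5 CPM gave 300 higher genes. Without the mean-variance trend there were 0 and 0 calls by limma (1461 genes at an unadjusted p under 0.05), against 454 calls by voom on library totals and 422 by voom with median scaling. Leaving out each library gave 61 to 234 higher and 86 to 161 lower genes.

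Without the filter, and without the trend, 0 members were higher and 0 lower by limma. At an unadjusted p under 0.05 there were 2 and 3 members, against 1729 of 26322 and 1461 of 12207 tested genes. The members were picked from this contrast, so nothing is read from these counts. In these 2 fits Cbfb kept its -1.27 with an adjusted p of 0.29 and 0.115 from limma. Pathway genes called higher numbered 0 without the filter, 0 with quantile normalization, 0 without the trend and 0 to 3 with a library left out. Pathway genes called lower numbered 0 without the filter and 0 without the trend (8 and 10 pathway genes, and 7 with quantile normalization, at an unadjusted p under 0.05 by limma). The cause was not tested.

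With the replicate number as a block, 320 genes were higher. The deviations of libraries with the same number from their group means had a correlation across genes of -0.0042, and the numbers are not stated to mark anything shared. The block changed no call of the members. A gene with under about 20 reads per library, such as F3 or Thbd, has wide counting intervals at this depth.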
